A study of Mus musculus with 9 samples.

Results

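The Ly6 surface antigen family was followed in mouse regulatory T cells (Treg cells) that lack the transcription factors Thpok (gene Zbtb7b) and LRF (gene Zbtb7a). The members were the rows Ly6a, Ly6c1, Ly6c2, Ly6d, Ly6e, Ly6g5b, Ly6k and Ly6i of the expression table, of which 7 of 8 were measured among 13698 genes, and Ly6i was not analysed here. They were chosen by name with their measured levels and group differences in these libraries known, so their differences are given as values and standard errors, with no p-value.

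Ly6 proteins are small, cysteine-rich proteins that mostly sit on the outer face of the cell membrane, held by a glycosylphosphatidylinositol (GPI) anchor. Several are used as surface markers of mouse lymphocytes: Ly6a encodes Sca-1, a marker of blood stem cells that activated T cells also carry, and Ly6c1 and Ly6c2 encode the Ly6C antigens of monocytes and of subsets of T cells. Many members respond to interferons, and most lie in a cluster on mouse chromosome 15.

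The study held 9 RNA-seq libraries, 3 in each of 3 groups, from spleen and lymph node of mice on a background that the labels give as C56Bl6/129 mix. Deficient cells were YFP+ MHCII- and came from LRFffThpokff Foxp3 Cre-YFP/X mice, in which Cre and YFP are driven by the Foxp3 gene on one X chromosome. Genetic controls were YFP+ MHCII- cells of WT Foxp3 Cre-YFP/X mice, which carry Cre without the floxed alleles. Animal controls were YFP- MHCII- CD25hi cells sorted from the same 3 mice as the deficient cells (142114, 232614 and 432614), so they carry the floxed alleles and grew in the same animals. The values are log2 CPM, which are reads per gene relative to the total of the library. They are quantile-normalized across libraries and are printed here as CPM. A value of 0.00457 CPM is the lowest in every library. The depth behind the values is unknown, so levels under 1 CPM are given without a fold.

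Zbtb7b lay at 0.147 to 0.366 CPM in deficient libraries, against 92.1 to 149 CPM in genetic controls and 76.9 to 106 CPM in animal controls. Zbtb7a transcripts overlapped between the groups, at 89.5 ± 12.6 CPM in deficient cells, 90.3 ± 21.0 CPM in genetic controls and 112 ± 19.3 CPM in animal controls (SD, n = 3 each). The exons that the floxed alleles remove are not separated in a value per gene. The 10 T cell markers summed to 6821 to 8339 CPM over the 9 libraries. Foxp3, the lineage factor of Treg cells, was at 26.5 to 35.9 CPM in deficient cells and 24.8 to 38.1 CPM in genetic controls, against 754 to 999.7 CPM in animal controls. Deficient cells and genetic controls, both sorted as YFP+, lay together and apart from the YFP- CD25hi animal controls. The YFP sort and the CD25hi gate differ together between deficient cells and animal controls. Their parts in differences between these groups, those of Ly6 genes included, cannot be told apart from that of Thpok and LRF loss.

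Of the 7 measured members, 6 lie on chromosome 15 (build GRCm38) within 349.915 kb, in the order Ly6d (chr15:74762056-74763620), Ly6k (chr15:74796874-74799986), Ly6e (chr15:74955051-74959905), Ly6a (chr15:74994877-74998031), Ly6c1 (chr15:75044018-75048830) and Ly6c2 (chr15:75108158-75111970). Ly6e is on the plus strand and the others are on the minus strand. Ly6g5b lies apart, at chr17:35113948-35115428 on the minus strand, within the major histocompatibility region. The coding sequences of Ly6c1 and Ly6c2 were 97.7% identical (384 of 393 bases), and that of Ly6a was 81.8% identical to Ly6c1. Of the 50-base stretches of the annotated Ly6c1 transcripts, untranslated parts included, 21.5% also occurred in those of Ly6c2. The sources used here do not say how reads shared by such copies were counted, so the split of reads among Ly6a, Ly6c1 and Ly6c2 is uncertain. Ly6e, Ly6d, Ly6k and Ly6g5b shared no 50-base stretch of their transcripts with another member.

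The 250 bases before the transcription starts of Ly6c1 (chr15:75048838-75049087) and Ly6c2 (chr15:75111972-75112221) are shown because these near-identical genes had unlike levels in the same libraries. Both are from RefSeq (GRCm38.p6), on the minus strand and written 5′ to 3′. Capitals mark the matches to a searched motif.
Ly6c1: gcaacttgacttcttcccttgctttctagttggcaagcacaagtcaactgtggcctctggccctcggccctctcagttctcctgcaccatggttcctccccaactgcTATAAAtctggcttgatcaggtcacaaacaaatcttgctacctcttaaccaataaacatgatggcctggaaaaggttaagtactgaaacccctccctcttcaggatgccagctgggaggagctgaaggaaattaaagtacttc
Ly6c2: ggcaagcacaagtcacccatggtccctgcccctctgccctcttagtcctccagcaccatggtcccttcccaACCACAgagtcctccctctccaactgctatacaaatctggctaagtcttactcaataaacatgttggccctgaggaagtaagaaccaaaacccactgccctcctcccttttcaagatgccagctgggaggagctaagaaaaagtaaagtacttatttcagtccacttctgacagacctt
The stretches were 57.7% identical over an alignment of 284 positions. The windows are offset, since the first bases of the Ly6c2 stretch occur further inside that of Ly6c1. Ends without a partner in the other window count as not identical, so the value understates the likeness of the shared part. Motif positions in the Ly6c1 and Ly6c2 stretches are therefore not on a common frame. Searched on both strands were the interferon response element core (GAAA, any 2 bases, GAAA), the interferon-gamma element TTCNNNGAA, the RUNX core TGTGGT, the LRF core GACCCC and the TATA box TATAAA. In the Ly6c1 stretch the match was TATAAA, at -143 to -138 from the start, a motif held by 12.4% of 32851 mouse promoters of the same length. In the Ly6c2 stretch the match was ACCACA, the RUNX core read on the other strand, at -179 to -174, and 14.0% of promoters held that motif. Neither stretch held the other motifs, which occurred in 2.98%, 7.02% and 13.1% of promoters for the interferon element, the interferon-gamma element and the LRF core. The promoter of Ly6g5b, the third that could be matched, held none of the 5 motifs. A match describes letters in this window and does not show that a factor binds there.

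In deficient cells 4 members lay below both controls and 3 had no shared direction. Ly6a, Ly6c1, Ly6e and Ly6d were lower in every deficient library than in every genetic control and every animal control. Of all 13698 genes, 7.28% were lower in every deficient library than in every genetic control, and 8.1% against the animal controls. The choice of members used these contrasts, so nothing is read from their count. Ly6k, Ly6c2 and Ly6g5b overlapped with both controls. The 2 comparisons share the deficient libraries.

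Ly6a, the Sca-1 gene, was at 8.96, 8.95 and 10.1 CPM in deficient libraries, against 283, 337 and 280.3 CPM in genetic controls and 141, 195 and 232 CPM in animal controls. The 3 deficient libraries lay close together and far below the 6 others. The mean was 9.35 ± 0.685 CPM in deficient cells, 300.1 ± 31.7 CPM in genetic controls and 189 ± 45.9 CPM in animal controls (SD, n = 3 each). The log2 difference was -5.00 ± 0.24 (SE) from genetic controls and -4.31 ± 0.24 from animal controls, or 32.0-fold and 19.9-fold lower. Among 8044 genes above 1 CPM in all 9 libraries, Ly6a ranked 1 from the lowest difference against genetic controls and 3 against animal controls. That set leaves out genes that fell under 1 CPM in deficient cells, such as Zbtb7b, so the rank is not one among all genes.

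Ly6c1, which encodes a Ly6C antigen, was at 26.5, 10.5 and 15.5 CPM in deficient libraries, against 144, 187 and 201 CPM in genetic controls and 101, 133 and 109 CPM in animal controls. The deficient libraries varied more among themselves than for Ly6a, and none reached a control. The log2 difference was -3.43 ± 0.34 from genetic controls and -2.80 ± 0.34 from animal controls, or 10.8-fold and 6.95-fold lower. Its ranks among the same genes were 4 and 18.

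Ly6e, an interferon-induced member that nearly all cell types carry, was the most abundant member, with smaller differences than Ly6a and Ly6c1. It was at 1930.3, 1770.0 and 1426 CPM in deficient libraries, against 2987, 2804 and 2987 CPM in genetic controls and 3623, 3537 and 3623 CPM in animal controls. Equal values in different libraries come from quantile normalization, which gives genes of equal rank equal values. The log2 difference was -0.79 ± 0.10 from genetic controls and -1.08 ± 0.10 from animal controls, or 1.73-fold and 2.12-fold lower, with ranks of 744 and 437.

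Ly6d, a marker of B lineage progenitors, was at 0.0248, 0.156 and 0.00457 CPM in deficient libraries, against 1.98, 5.96 and 1.17 CPM in genetic controls and 5.58, 8.42 and 2.21 CPM in animal controls. All 3 deficient libraries lay under 1 CPM and all 6 controls above it. The sum of the 9 measured of 12 B cell markers did not follow that order. It was 54.8 to 71.9 CPM in deficient cells, 22.4 to 30.8 CPM in genetic controls and 62.2 to 128 CPM in animal controls. Cd79b alone was at 45.0 to 67.1 CPM in deficient libraries, 12.6 to 22.5 CPM in genetic controls and 39.6 to 74.3 CPM in animal controls. Of the 9, 7 had a mean under 1 CPM in deficient cells, 6 in genetic controls and 1 in animal controls. The part of B cells in the Ly6d levels was not tested.

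**Figure D1:**
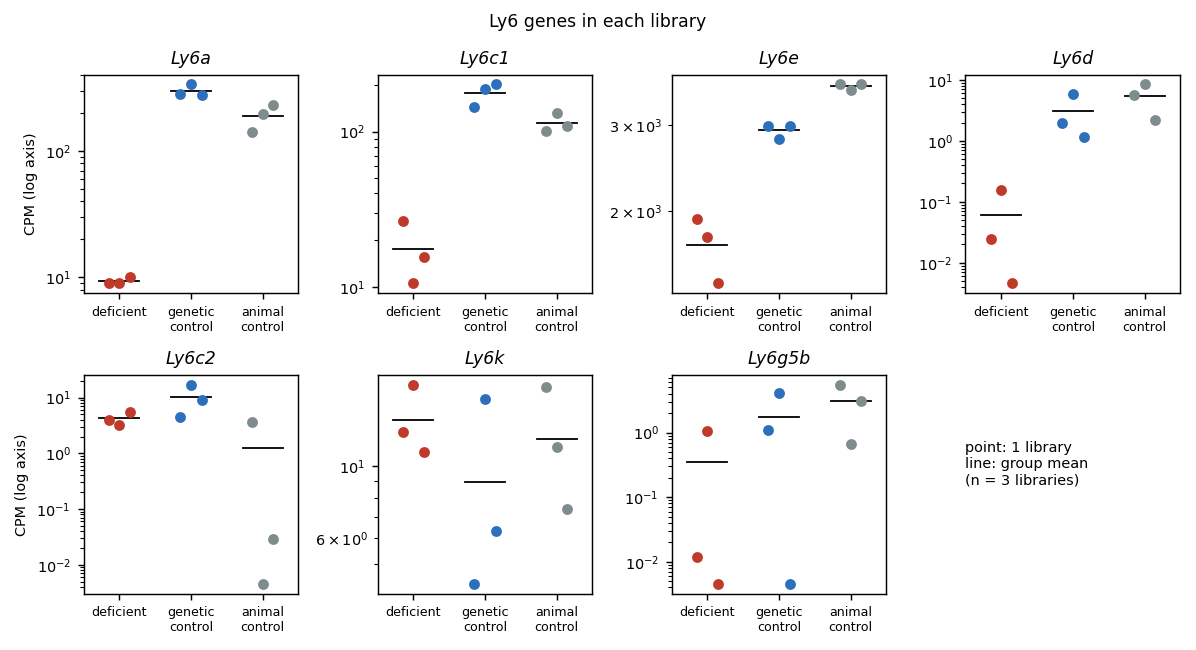
Level of each measured Ly6 gene in each of the 9 libraries, in CPM on log axes whose ranges differ between panels. Points are libraries and lines are means of 3 libraries, and in the panels of Ly6a, Ly6c1, Ly6e and Ly6d the 3 deficient libraries lie below all 6 controls.

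Ly6c2, the other Ly6C gene and the form typical of monocytes, did not follow Ly6c1. It was at 4.0, 3.18 and 5.60 CPM in deficient libraries, against 4.46, 17.0 and 9.11 CPM in genetic controls and 3.63, 0.00457 and 0.0290 CPM in animal controls. Deficient libraries overlapped with genetic controls, and 2 of the 3 animal controls were near the lowest value. The highest level, 17.0 CPM, was in genetic control 8619. In that library Lyz2, a lysozyme gene of myeloid cells, was at 257 CPM, against 7.21 and 12.0 CPM in the other genetic controls. Lyz2 was at 9.62, 36.3 and 33.0 CPM in deficient libraries and 3.11, 0.978 and 1.06 CPM in animal controls. The 10 measured of 15 myeloid markers summed to 139 to 208 CPM in deficient cells, 156 to 615 CPM in genetic controls and 162 to 245 CPM in animal controls, with the 615 CPM in library 8619. Of these 10 markers, 4 had a mean under 1 CPM in animal controls, 1 in deficient cells and 1 in genetic controls. Among deficient libraries, 232614 had the highest Lyz2 level and myeloid marker sum but the lowest Ly6c2 level. The part of these markers in the Ly6c2 levels was not tested.

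Ly6k, known from sperm and testis, was at 12.8, 17.8 and 11.0 CPM in deficient libraries, against 4.35, 16.1 and 6.30 CPM in genetic controls and 17.5, 11.5 and 7.40 CPM in animal controls. The 3 groups overlapped, and the log2 difference was 0.84 ± 0.66 from genetic controls and 0.25 ± 0.66 from animal controls. Ly6g5b was at 0.0120, 1.04 and 0.00457 CPM in deficient libraries, against 1.10, 4.09 and 0.00457 CPM in genetic controls and 5.50, 0.658 and 3.05 CPM in animal controls. Its levels were low in all groups, and each group held a library under 1 CPM.

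**Figure D2:**
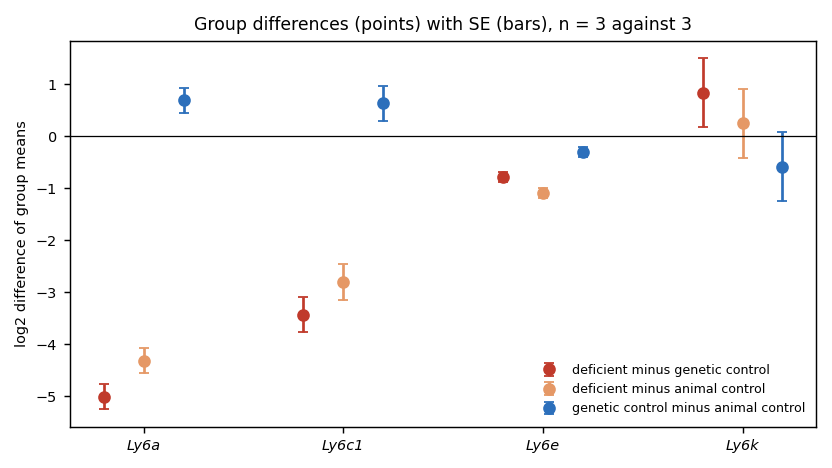
Log2 differences of group means for the 4 members above 1 CPM in all 9 libraries, with bars for the SE (n = 3 against 3). The points of Ly6a, Ly6c1 and Ly6e for deficient cells lie below 0 against both controls, while the Ly6k bars against animal controls span 0 and its point against genetic controls is 0.84 ± 0.66.

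Levels per kilobase used the merged length of all annotated exons of a gene, which can exceed that of a single transcript. Per kilobase of exon, Ly6e was the most abundant member in all groups. Its mean level was 452 CPM per kb in deficient cells, 773 in genetic controls and 949.9 in animal controls. Ly6a followed in the controls, at 249 CPM per kb in genetic controls and 157 in animal controls, but stood at 7.76 CPM per kb in deficient cells. There it lay below Ly6k, at 16.7 CPM per kb, and Ly6c1, at 10.5 CPM per kb. The order of the means in deficient cells was thus Ly6e, Ly6k, Ly6c1 and Ly6a, and in both controls Ly6e, Ly6a, Ly6c1 and Ly6k. Single deficient libraries did not all keep that order. In 142114 Ly6c1 (15.8 CPM per kb) lay above Ly6k (15.4), and in 232614 Ly6a (7.42) lay above Ly6c1 (6.29). The order also depends on the division by length. In CPM, the deficient mean of Ly6c1 (17.5) lay above that of Ly6k (13.9). Ly6c2, Ly6d and Ly6g5b were at most at 7.26 CPM per kb in any group, the level of Ly6d in animal controls. In bulk libraries, fewer cells with a transcript and less of it per cell cannot be told apart.

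Deficient cells and animal controls came from the same mice, which allows a comparison within each mouse. Ly6a was 15.7-fold, 21.8-fold and 22.9-fold lower in deficient cells than in animal controls of mice 142114, 232614 and 432614. Ly6c1 was 3.82-fold, 12.6-fold and 7.0-fold lower, and Ly6e was 1.88-fold, 2.0-fold and 2.54-fold lower, in the same order of mice. These 3 members were lower in deficient cells of all 3 mice, and in each mouse the difference was greatest for Ly6a and smallest for Ly6e. Ly6k had no shared direction, with log2 differences of -0.45, 0.63 and 0.58.

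**Figure D3:**
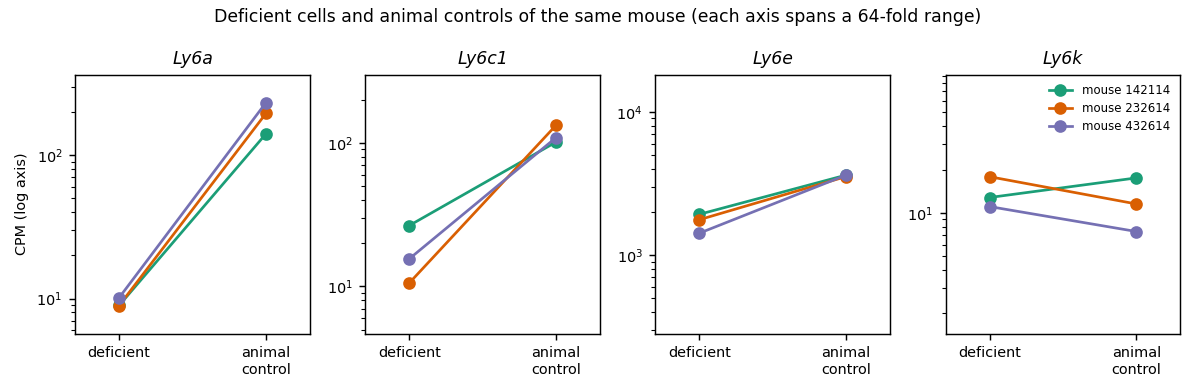
Levels of 4 Ly6 genes in CPM (log axes, each spanning the same fold range) in deficient cells and animal controls of each mouse, with lines joining the libraries of 1 mouse. The lines of Ly6a, Ly6c1 and Ly6e run the same way in the 3 mice, and those of Ly6k cross.

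The members did not keep 1 order within groups. Among deficient libraries Ly6a was highest in 432614, while Ly6c1 and Ly6e were highest in 142114, and Ly6e was lowest in 432614. Among genetic controls Ly6a, Ly6c2, Ly6d, Ly6k and Ly6g5b were highest in 8619, the library with the most Lyz2. Ly6c1 was highest in 8800, and Ly6e was lowest in 8619. With 3 libraries a group, such orders allow no test.

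Genetic controls compared with animal controls had more Ly6a and Ly6c1 and less Ly6e. The log2 difference was 0.69 ± 0.24 for Ly6a and 0.63 ± 0.34 for Ly6c1, or 1.61-fold and 1.55-fold higher, and -0.30 ± 0.10 for Ly6e. Every genetic control was above every animal control for Ly6a, Ly6c1 and Ly6c2, which held for 4.88% of all genes. Every genetic control was below every animal control for Ly6e, as for 5.57% of all genes. Ly6e thus lay on the other side from Ly6a and Ly6c1 between the controls, and on the same side in deficient cells.

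Genes were ranked by how closely their log2 levels followed a member over the 9 libraries, among the 8937 genes that reached a group mean of 10 CPM. The points share the normalization and form a deficient and a control cluster, so Pearson's r serves here to rank genes only. For Ly6a the closest were Ttn (titin, r = 0.988), Zbtb7b (0.987), Actg1 (a cytoplasmic actin, 0.986), Itgb1 (integrin beta chain, 0.986) and Samhd1 (a nucleotide hydrolase, 0.980). For Ly6c1 they were Slc48a1 (a heme transporter, 0.981), Bmp2k (a kinase, 0.978), Arc (0.971), Ly6a (0.971) and Zbtb7b (0.970). Ly6c1 ranked 10 in likeness to Ly6a and Ly6e ranked 100 (r = 0.887). Ly6a and Ly6c1 transcripts share stretches of sequence, and the part of shared reads in their likeness was not tested. Ly6c2 ranked 5807 (r = -0.22) and Ly6k 7356 (r = -0.44).

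Around the cluster, 24 other genes within 1 Mb of it were measured. Of these, 1 passed the test in each comparison and was lower in deficient cells, where 0.533% of all genes were called lower against genetic controls and 0.584% against animal controls (limma, Benjamini-Hochberg adjusted p under 0.05). It was Arc (chr15:74669083-74672570), a gene best known from active neurons, whose lower coordinate lies 329 kb from the start of Ly6a. Arc was at 0.0402, 0.00457 and 0.00457 CPM in deficient libraries, against 13.8, 30.1 and 10.3 CPM in genetic controls (limma adjusted p = 0.00488) and 13.5, 17.8 and 26.0 CPM in animal controls (limma adjusted p = 0.00390). With mouse as a block, the adjusted p against animal controls was 0.284. The nearest measured genes outside the cluster, Lynx1 before Ly6d and Zfp41 after Ly6c2, were not called against either control. Between Ly6d and Ly6c2, 3 other measured genes (2010109I03Rik, Gm6610 and Gm28068) were not called.

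**Figure D4:**
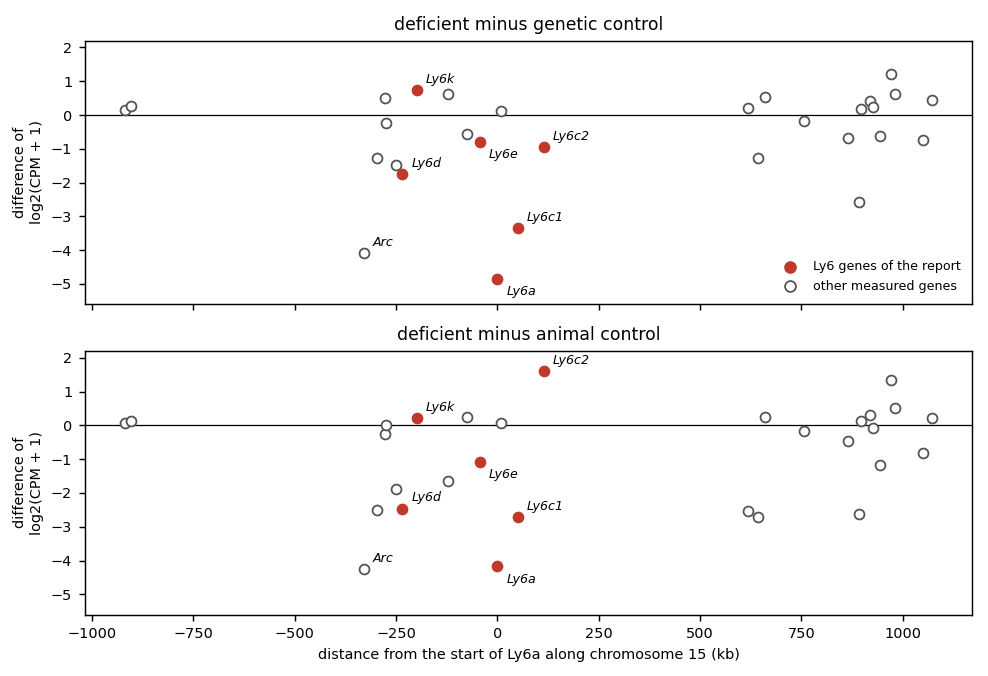
Difference of log2(CPM + 1) between deficient cells and each control for measured genes of chromosome 15, by distance from the start of Ly6a in kb. Filled points are Ly6 genes, placed by their start, and open points are other genes, placed by their lower coordinate. Ly6a, Ly6c1 and Arc lie lowest against genetic controls, with other genes between Arc and Ly6a nearer to 0.

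Other genes were tested in lists around the family, which share some genes and were chosen with earlier results known. Over all genes, 0.869% were called in either direction in deficient cells against genetic controls, 0.891% against animal controls and 0.0365% between the controls. An unadjusted p under 0.05 (limma) was reached by 1455, 1632 and 907 of the 13698 genes, in the same order of comparisons. Of 40 further Ly6 and uPAR family genes 5 were measured (2010109I03Rik, Lynx1, Pate2, Plaur and Slurp1), all with a mean under 10 CPM in each group, and 0 were called in any comparison (limma). At an unadjusted p under 0.05 there were 0 for deficient cells against genetic controls, 3 against animal controls and 1 between the controls. Plaur, the urokinase receptor, was at 0.154, 6.01 and 11.3 CPM in deficient libraries, against 6.52, 7.31 and 0.00457 CPM in genetic controls and 0.136, 0.00457 and 0.00457 CPM in animal controls. The deficient libraries overlapped with genetic controls and lay above all 3 animal controls.

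Other GPI-anchored proteins of T cells gave 2 calls of 15 measured genes, both lower in deficient cells against both controls. Nt5e, which encodes the ectoenzyme CD73, was at 104, 126 and 123 CPM in deficient libraries, against 365, 392 and 284 CPM in genetic controls and 451, 373 and 465 CPM in animal controls. The log2 difference was -1.56 ± 0.17 (limma adjusted p = 0.00323) and -1.87 ± 0.17 (limma adjusted p = 9.25e-04). Folr4, the folate receptor family member of Treg cells, averaged 687 ± 22.0 CPM in deficient cells, against 1122 ± 54.1 CPM in genetic controls and 1264 ± 269.9 CPM in animal controls (SD, n = 3 each). Its log2 difference was -0.71 ± 0.13 (limma adjusted p = 0.0414) and -0.86 ± 0.13 (limma adjusted p = 0.0137). With mouse as a block, the adjusted p against animal controls was 0.164 for Nt5e and 0.284 for Folr4. The Folr4 call against genetic controls was lost in 7 of 9 fits that left out a library (limma adjusted p up to 0.158), and the call against animal controls without deficient 232614 (0.0584). The median log2 difference of the 10 list genes with a mean of 10 CPM or more was 0.04 and 0.05, beside 0.02 and 0.02 over all such genes. Of 28 genes that build and attach the GPI anchor, 27 were measured and 0 were called against either control (limma, 7 and 3 at an unadjusted p under 0.05), with a median of -0.01 and 0.13.

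Interferon receptors and their signalling genes (20 measured) gave 0 calls against genetic controls (limma, 2 at an unadjusted p under 0.05) and 1 against animal controls. Tyk2, a Janus kinase, averaged 38.5 ± 7.03 CPM in deficient cells, against 102 ± 7.64 CPM in genetic controls (limma adjusted p = 0.0788) and 125 ± 51.8 CPM in animal controls (log2 difference -1.63 ± 0.30, limma adjusted p = 0.0414, and 0.312 with mouse as a block). The call was lost in 8 of 9 fits without a library (limma adjusted p up to 0.119). Of 56 measured interferon target genes, 1 was called lower against genetic controls and 0 against animal controls (limma, 11 and 13 at an unadjusted p under 0.05). That gene, Ifi27l2a, averaged 284 ± 70.8 CPM in deficient cells, against 564 ± 24.0 CPM in genetic controls (log2 difference -1.01 ± 0.18, limma adjusted p = 0.0376) and 453 ± 81.3 CPM in animal controls (limma adjusted p = 0.152). The call was lost in 7 of 9 fits without a library (limma adjusted p up to 0.131). Of the 11 targets under 0.05 unadjusted against genetic controls, 10 were lower in deficient cells. Of the 13 against animal controls, 7 were lower. Between the controls 10 targets reached an unadjusted p under 0.05 (limma), of which 8 were higher in genetic controls. The median of 46 target genes was -0.14 against genetic controls, 0.06 against animal controls and 0.20 for genetic against animal controls. Over all genes with a mean of 10 CPM or more it was 0.02, 0.02 and -0.01.

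Of 24 genes that mark effector or resting T cell states, among which Ly6C is commonly read, 1 was called in each comparison (limma). At an unadjusted p under 0.05 there were 12 genes against genetic controls, of which 9 were lower in deficient cells, and 13 against animal controls, of which 9 were lower. Over all 13698 genes, 1455 and 1632 reached that level. Klrg1, an inhibitory receptor of effector T cells, was at 0.0120, 0.0260 and 0.0612 CPM in deficient libraries, against 3.56, 15.3 and 44.2 CPM in genetic controls (limma adjusted p = 0.00985) and 65.8, 53.3 and 28.4 CPM in animal controls (limma adjusted p = 0.00338, and 0.280 with mouse as a block). Against genetic controls the call was lost without genetic control 8619 (limma adjusted p = 0.0559), without 8800 (0.0618) and on log2(CPM + 1) values (0.0745). The median of the 22 list genes with a mean of 10 CPM or more was -0.21 and -0.12. Between genetic and animal controls, 0 genes of these lists were called (limma, with 0 to 10 genes a list at an unadjusted p under 0.05).

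Endothelial cells, which carry much Ly6a and Ly6c1, had 2 of 12 markers measured, Pecam1 and Egfl7. Egfl7 had a group mean under 1 CPM in both controls but not in deficient cells, the opposite order to Pecam1. Pecam1 was at 64.3 to 148 CPM in deficient cells, 226 to 243 CPM in genetic controls and 167 to 220.1 CPM in animal controls, and was called against neither (limma adjusted p = 0.0983 and 0.207). The 4 measured of 7 plasma cell markers summed to 166 to 221 CPM in deficient cells, 299 to 436 CPM in genetic controls and 238 to 406 CPM in animal controls, most of it Xbp1, which other cells also carry. The 12 Treg markers summed to 3764 to 4221 CPM in deficient cells, 4708 to 5782 CPM in genetic controls and 6842 to 7438 CPM in animal controls. The 5 measured of 10 NK cell markers summed to 59.3 to 126 CPM in deficient cells, 16.4 to 51.5 CPM in genetic controls and 24.9 to 32.2 CPM in animal controls. Their part in the Ly6 levels was not tested.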

How the data were processed

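RNA was taken with the RNeasy plus micro kit and libraries were made with the SMARTer Ultra Low and Nextera XT kits, per the labels' protocols. Reads were converted with bcl2fastq 1.8.4, aligned with STAR 2.4.0h to mm10 and processed with limma (no version named), per the submitters' processing notes. The sources used here give no counting tool, annotation or strand setting.

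The authors deposited log2 values, whose linear sums of 999252 to 999256 per library and shared lowest value (-7.77) and highest value (13.42) are those of log2 CPM after quantile normalization. They were used as deposited. After 4 exact duplicate rows were dropped, 13698 genes remained, of which 8.00% to 11.4% per library lay at the lowest value.

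limma-trend (limma 3.58.1, R 4.3.3) fitted the 3 group means over all 9 libraries, tested 3 two-sided contrasts, and adjusted p over all genes by Benjamini-Hochberg (called under 0.05). Where the labels do not state separate animals, p-values measure only the spread between libraries. No exact permutation test was run, since 3 against 3 allows no p below 0.1. Same-numbered deficient and animal control libraries come from the same mouse by the labels. Their deviations from the group means correlated at 0.00820, 0.0214 and 0.0307, against -0.0238 to 0.00124 for different mice.

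Members and lists were chosen with earlier results of these data known. Named genes were the members, Zbtb7b, Zbtb7a, Foxp3, Il2ra, other Ly6 genes with a group mean of 10 CPM or more and all called, up to 4 called genes a list, called genes and nearest neighbours around the cluster, and the 5 most similar in profile to Ly6a and Ly6c1. Plaur, Pecam1, Egfl7, Lyz2, Cd79b and Xbp1 were added after their values were seen. Il2ra averaged 473 CPM in deficient cells, 676 CPM in genetic controls and 770 CPM in animal controls. Positions are from GENCODE M21 (GRCm38). Coding identities used APPRIS principal transcripts, and symbols were matched to lists by current or older names.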

Additional observations from a re-analysis of the deposited data

How the results depend on the processing

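The log2 differences of Ly6a, Ly6c1, Ly6e and Ly6k between deficient cells and controls moved by less than the residual SD between libraries on log2(CPM + 1) values, with genes of 1 CPM or more, with only the compared libraries, with the block, and in each of the 9 fits without a library. Without a library they ran over -5.06 to -4.92 for Ly6a, -3.78 to -3.11 for Ly6c1 and -0.88 to -0.66 for Ly6e against genetic controls, and -4.51 to -4.15, -3.15 to -2.48 and -1.18 to -0.96 against animal controls. Ly6c1 without deficient 142114 and Ly6e without deficient 432614 moved by more than their SE. Ly6k against animal controls changed sign (-0.06) without animal control 432614. Genes called numbered 119, 122 and 5 for deficient cells against genetic controls, the same cells against animal controls, and between the controls. With only the 6 compared libraries they numbered 22, 52 and 3, without a library 48 to 93, 58 to 115 and 4 to 10, and without the trend 32 between the controls. Of 168 listed genes, 5, 5 and 0 were called. Listed genes called for deficient cells were 2 and 3 without the trend, 2 and 2 with only 6 libraries, and 2 to 5 and 3 to 7 without a library. List counts and single genes under these settings were added after seeing the data.

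With mouse as a replicate block (deficient and animal control libraries), 0 genes were called and 0 listed genes (limma, 1395 at an unadjusted p under 0.05, lowest adjusted p = 0.0953), with fewer samples and residual degrees of freedom. Every call against animal controls was lost.

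Arc and Nt5e stayed called without any 1 library (limma adjusted p up to 0.0393 and 0.0188). With only the 6 compared libraries the calls lost were Arc against genetic and animal controls (limma adjusted p = 0.0740 and 0.0615), Klrg1 (0.0958) and Ifi27l2a (0.0978) against genetic controls, and Folr4 (0.0863) and Tyk2 (0.127) against animal controls. Without the trend they were Folr4 (0.444), Nt5e (0.0509) and Ifi27l2a (0.276) against genetic controls, and Folr4 (0.294) and Tyk2 (0.137) against animal controls. The cause was not tested. Depth is unknown, which limits Ly6d, Ly6c2 and Ly6g5b most.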
